A study of Homo sapiens with 40 samples.

Results

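In LNCaP cells, which were grown from a human prostate cancer and depend on androgen, 5 genes that make, sense or remove prostaglandins were followed. They are PLA2G2A and PLA2G5, PTGS1, PTGER4, and HPGD. Members were all probe sets that the platform annotation pairs with 1 of these 5 genes alone, which gave 14 of the 54675 probe sets on the array and 5 of the 19775 genes that such pairings name. All samples were LNCaP cells. The arrays covered 3 control lines that the labels call sensitive to MDV3100 and 7 resistant clones numbered 1, 9, 10, 14, 15, 19 and 24. MDV3100, also known as enzalutamide, is an antiandrogen that blocks the androgen receptor. Control 1, control 2 and control 3 below stand for the lines whose titles read D+E-, D+R- and, for the last, M+R-. The labels do not explain these titles. All lines grew in RPMI medium with 10% FCS, were plated 3 d before treatment and then received 10 µM MDV3100 or its solvent, 0.1% DMSO, for 24 h. Each line and treatment had 2 arrays, numbered replicate 1 and replicate 2, so there were 6 DMSO and 6 MDV3100 arrays of control lines, and 14 and 14 of clones. A line and replicate number together are called a culture below. Nothing in the labels says whether the 2 replicates of a line were grown separately. Tests with all arrays averaged the 2 arrays of a line and treatment, so their p-values reflect the spread among these lines alone. What part of the spread is technical was not tested.

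Prostaglandins are lipid signals made from arachidonic acid. Phospholipases A2 cut arachidonate from membrane lipids, cyclooxygenases turn it into the common precursor of all prostaglandins, and terminal synthases convert that precursor into products such as prostaglandin E2. Prostaglandin E2 acts on EP receptors at the cell surface, and a dehydrogenase inside the cell ends its action. In prostate cancer the secreted phospholipase PLA2G2A, the EP4 receptor and androgen control of the dehydrogenase HPGD have each been studied.

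Signals are MAS5 intensities on a linear scale. Differences were taken after conversion to log2(signal + 16), which understates the change of dim genes. Signals of different genes come from different probe sets and are not set against each other. Tests were made with limma over the 27338 probe sets whose mean log2 level reached 4.815, equal to a signal of 12.1, with an adjusted p (Benjamini-Hochberg) under 0.05 taken as a call. The line was the replicate in these tests, with 3 control lines and 7 clones in 1 fit. Of the 14 member probe sets, 10 passed the filter on dim signals. The brightest probe set stands for its gene below. HPGD had 4 probe sets, all kept, and the other 3 followed the brightest over the 40 arrays with r = 0.99, 0.97 and 0.89. PTGS1 had 4, of which 3 were kept and 2 followed the brightest with r = 0.92 and 0.91. PLA2G5 had 3 with 1 kept, PTGER4 had 2 with 1 kept, and PLA2G2A had 1. The dim PTGER4 set 204896_s_at never exceeded a signal of 6.3. The dim PLA2G5 set 206178_at, with a mean of 4.812, lay just under the filter and followed the brightest with r = 0.88, and the PTGS1 set 215813_s_at, at 4.821, lay just inside it. Sets whose names end in s_at or x_at can bind more than 1 related transcript.

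Replicate 1 and replicate 2 cultures of 1 label were unlike each other, and the tests of the members are therefore given for all arrays and, for most, for each replicate number alone. Over the kept probe sets, for 0 of the 20 cultures was the other replicate of its own label the best match. The replicate 2 culture labelled control 2 matched clone 1 of replicate 1 best (r = 0.71), and the replicate 2 culture labelled clone 1 matched clone 19 of replicate 1 best (r = 0.73). The replicate 2 culture labelled control 3 matched clone 15 of replicate 1 best (r = 0.59). DMSO and MDV3100 arrays of a culture went together, with a median r of 0.768 over the 20 cultures. These r are across probe sets, which are not independent replicates. Results are also given without the replicate 2 arrays labelled control 2 and clone 1, singled out from these same data. Control 3 of replicate 2 stayed in. Leaving out a control culture enlarges the control response of any gene that moved less in it. As a check that the drug acted, KLK2, TMPRSS2 and FKBP5, genes induced by the androgen receptor, fell in the control lines by 1.5, 1.05 and 0.65 (limma adjusted p = 0.00524, 0.000962 and 0.000527). In replicate 1 alone all 3 were called, at -1.98, -1.42 and -0.65, and in replicate 2 alone 0 of 3 were, at -1.02, -0.68 and -0.64 (limma adjusted p = 0.202, 0.219 and 0.105). Of 8 luminal prostate markers 7 were measured and all 7 passed the filter, whereas 0 of 3 measured basal, 0 of 3 leukocyte and 0 of 3 mast cell markers did. Of 5 fibroblast markers 2 passed, and the summed signal of the 5 lay between 130.5 and 214.5 on control DMSO arrays, 127.4 and 362.5 on control MDV3100 arrays, 89.7 and 185.5 on clone DMSO arrays and 81.0 and 191.9 on clone MDV3100 arrays. Of 3 endothelial markers 1 passed, with sums of 16.3 to 133.2, 14.3 to 88.9, 15.5 to 34.2 and 15.9 to 46.2 in the same order. That marker, VWF, fell in the control lines under MDV3100 by 0.43 (limma adjusted p = 0.0342) and was lower in replicate 2 than in replicate 1 control lines by -1.55 (adjusted p = 0.0326). In replicate 1 it was lower in clones than in control lines, by -1.59 in DMSO (adjusted p = 0.00352) and -1.31 in MDV3100 (adjusted p = 0.0185). The fibroblast marker COL1A1 was lower in clones under MDV3100 by -0.61 (adjusted p = 0.0378), and in replicate 1 alone it rose in the control lines by 0.64 (adjusted p = 0.0189). The endothelial marker CDH5 and the fibroblast markers COL1A2, DCN and LUM never exceeded a signal of 9.0. The part of these markers in the results was not tested.

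The stretch before the transcription start is shown for the 4 genes whose level under MDV3100 fell or rose in the control lines, because these promoters differ in base composition. The sequences are RefSeq's, build GRCh38.p14, 150 bases ending just before the start and read 5′ to 3′, with matches to the motifs searched in capitals. The searched window was 250 bases long. Where RefSeq gives several starts, the one whose window held a match is shown, so a match there follows from that choice.
PLA2G2A, start 3 of 3, chr1:19979619-19979768, minus strand: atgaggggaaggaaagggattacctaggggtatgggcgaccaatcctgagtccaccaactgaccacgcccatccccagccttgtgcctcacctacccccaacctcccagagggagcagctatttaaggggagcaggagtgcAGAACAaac
PLA2G5, chr1:20070044-20070193, plus strand: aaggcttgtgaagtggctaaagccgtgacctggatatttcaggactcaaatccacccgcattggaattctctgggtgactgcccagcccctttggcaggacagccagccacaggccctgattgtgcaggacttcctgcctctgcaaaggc
PTGER4, chr5:40679765-40679914, plus strand: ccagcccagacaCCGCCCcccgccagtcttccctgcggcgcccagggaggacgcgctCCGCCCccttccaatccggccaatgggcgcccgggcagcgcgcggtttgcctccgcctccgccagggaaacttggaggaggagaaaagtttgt
HPGD, start 1 of 2, chr4:174522489-174522638, minus strand: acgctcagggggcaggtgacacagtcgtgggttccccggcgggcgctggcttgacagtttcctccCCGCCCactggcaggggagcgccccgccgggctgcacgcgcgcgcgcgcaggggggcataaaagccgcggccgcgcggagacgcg

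The motifs, searched on both strands, were the GC box GGGCGG, the TATA box TATAAA, the cAMP response element TGACGTCA and the steroid receptor hexamer AGAACA. None of these overlapped another in the windows shown. Of 34788 promoters of the same length, 42.6% held the GC box, 10.8% the TATA box, 1.64% the cAMP response element and 12.4% the hexamer. The PTGER4 window held 4 GC boxes, of which the printed stretch shows 2, and had 72.8% G and C. The HPGD window held 1 GC box and had 70.8% G and C, against a median of 58.0% over all promoters. The window of HPGD start 2, not shown, held no match and had 42.0% G and C. The PLA2G5 window had no match, with 54.4% G and C. The PLA2G2A window had 1 hexamer, starting 9 bases before the start, with 52.8% G and C. The windows of PLA2G2A starts 1 and 2, not shown, held no match and had 53.6% and 46.8%. In the windows shown the ratio of observed to expected CpG was 0.82 and 0.93 for PTGER4 and HPGD and 0.16 and 0.17 for PLA2G5 and PLA2G2A. Its median was 0.56 over all promoters. At HPGD start 2 it was 0.38, below that median, and at PLA2G2A starts 1 and 2 it was 0.23 and 0.15. PLA2G2A and PLA2G5 are neighbours on chromosome 1. A match is a description of letters and not a site of binding.

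In the control lines MDV3100 lowered HPGD, PTGER4 and PLA2G5 and raised PLA2G2A. With all arrays limma called 7 of the 10 kept member probe sets, 5 lower and 2 higher, against 8.32% of all probe sets tested. Their median difference was -0.44, and that of all probe sets was 0.00692. In replicate 1 arrays alone it called 5 of 10, all lower (6.39% of all probe sets). In replicate 2 arrays alone it called 0 of 10 (0.0732% of all probe sets), with 6 of 10 at an unadjusted p under 0.05 and the same directions for the 4 genes. The actin 3' to 5' ratio, which rises as RNA breaks down, moved with the drug in the replicate 1 control arrays. It lay between 3.18 and 4.12 in DMSO and between 4.26 and 6.59 in MDV3100, with no overlap. In replicate 2 control arrays it lay between 3.3 and 3.7 in DMSO and between 3.36 and 3.95 in MDV3100. Its part in the control response was not tested. In bulk samples fewer cells of a type and less RNA per cell cannot be told apart.

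In the resistant clones 1 of the 10 member probe sets was called, PLA2G5, which fell (0.366% of all probe sets). In replicate 1 alone 1 of 10 was called, PLA2G2A, which rose (0.772%), and in replicate 2 alone 0 of 10 (0.00732%), with 7 of 10 at an unadjusted p under 0.05. For the difference between the responses of clones and control lines 1 of 10 was called, HPGD 211548_s_at (0.435%), with 0 of 10 in replicate 1 (0.011%) and 0 of 10 in replicate 2 (0%). At an unadjusted p under 0.05 by limma these were 3 and 8 of 10, and 2767 of all probe sets in replicate 2. For the level of clones against control lines 0 of 10 was called in DMSO (0.0183%). There 3 of 10 were at an unadjusted p under 0.05 by limma, against 23% of all probe sets. In MDV3100 6 of 10 were called, all higher in clones (7.84%). The replicate block below is a fit with each line and replicate pair as a unit and no term for the line. Its 2 units of a line are not independent. With it 0 of the 10 was called in the MDV3100 level, and 0 of all 27338 probe sets, with 4 and 4012 at an unadjusted p under 0.05 by limma. Without the filter 4 were called, and HPGD 203914_x_at, the brightest HPGD set, was not (adjusted p = 0.0609). HPGD 203913_s_at and 211549_s_at and the PLA2G5 set are 3 of the 6, and their means reached the filter only through the 6 bright replicate 2 clones (4.37, 4.505 and 4.63 without them), so the count is no support for a higher level in clones. Within replicate 1 the DMSO level gave 3 of 10 (4.15%) and the MDV3100 level 4 of 10 (7.18%), and within replicate 2 these were 0 of 10 (9.24%, with 7 of 10 at an unadjusted p under 0.05) and 5 of 10 (16.6%). The PTGS1 sets 205128_x_at and 215813_s_at passed the filter only through the 7 replicate 1 clones (means of 4.762 and 4.604 without them), which bears on the replicate 1 counts in the same way.

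**Figure D1:**
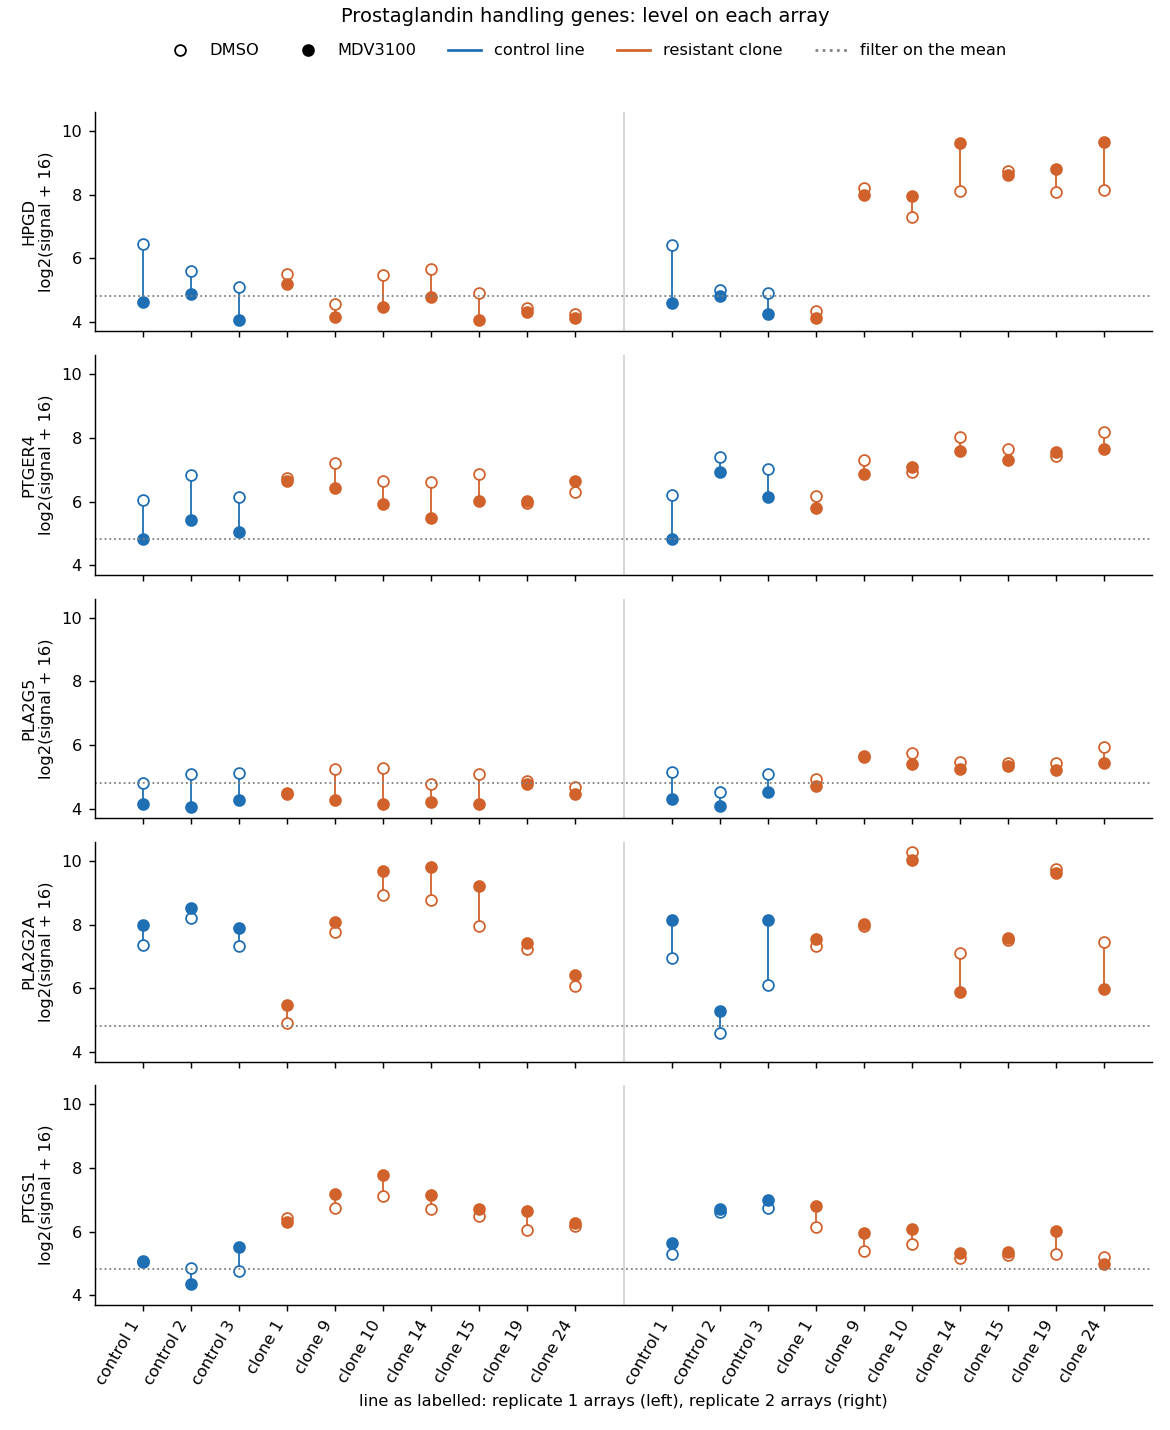
Level of each gene's brightest probe set on every array, as log2(signal + 16), with open circles for DMSO, filled circles for MDV3100, blue for control lines and orange for clones, replicate 1 cultures on the left and replicate 2 cultures on the right. The dotted line is the filter at 4.815. HPGD is highest in 6 replicate 2 clones, and PTGS1 is higher in clones than in control lines among replicate 1 cultures only.

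PLA2G2A, the group IIA secreted phospholipase that releases fatty acids such as arachidonate from membranes, rose under MDV3100 in every control culture. In replicate 1 its signal went from 149.6 to 236.3 in control 1, from 281.2 to 352.9 in control 2 and from 144.0 to 223.0 in control 3. In replicate 2 it went from 108.2 to 268.4, from 8.1 to 23.0 and from 53.2 to 268.0 in the same order. The replicate 2 culture labelled control 2 was far below the other 5 control cultures in both treatments. The rise was 0.90 ± 0.18 (SE, n = 3 lines), with limma adjusted p = 0.00849, and it was 0.84 (adjusted p = 0.0244) without the replicate 2 arrays labelled control 2 and clone 1. Each replicate number alone gave the same direction, at 0.50 (adjusted p = 0.108) and 1.31 (adjusted p = 0.115), and limma made no call there. Without control 1 the rise was 0.91 (adjusted p = 0.0856) and without control 3 it was 0.70 (adjusted p = 0.0603), so the call rested on both lines.

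Among the clones PLA2G2A divided by replicate number. In replicate 1 its DMSO signal lay between 14.3 (clone 1) and 469.8 (clone 10), median 203.7, and its MDV3100 signal between 28.9 and 892.2, median 253.7. It was higher under the drug in 7 of 7 clones, by 0.19 to 1.25, and the mean rise of 0.63 ± 0.12 (SE) was called (limma adjusted p = 0.0214). That call was lost without clone 10, 14 or 15, with adjusted p = 0.0823, 0.103 and 0.066. In replicate 2 the DMSO signal lay between 122.1 and 1232, median 165.8, and the MDV3100 signal between 42.8 and 1024, median 176.3. There it was lower under the drug in 4 of 7 clones, furthest in clone 14, from 122.1 to 42.8, and clone 24, from 158.5 to 46.6. The replicate 2 mean of -0.39 was not called (adjusted p = 0.669), and replicate 2 minus replicate 1 was -1.02 ± 0.22 (adjusted p = 0.125, with 0.0256% of all probe sets called). With all arrays the clones' response was 0.12 (adjusted p = 0.676) and the difference from the control lines was -0.78 ± 0.22 (adjusted p = 0.128), with 0.13 in replicate 1 and -1.70 in replicate 2.

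The level of PLA2G2A varied widely among the clones. The order of the replicate 2 clones in DMSO was clone 10 (1232) and clone 19 (840.1) on top, then clones 9, 15, 24, 1 and 14 between 233.6 and 122.1. The same labels in replicate 1 ran from clone 10 (469.8) and clone 14 (424.4) to clone 24 (51.7) and clone 1 (14.3). Clones minus control lines in DMSO was 1.03 ± 0.55 (limma adjusted p = 0.281), and without the replicate 2 arrays labelled control 2 and clone 1 it was 0.25 (adjusted p = 0.86). In replicate 2 alone it was 2.31 (adjusted p = 0.0575). Under MDV3100 it was 0.25 (adjusted p = 0.84), and it was -0.44 (adjusted p = 0.728) without those arrays.

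PLA2G5, the group V secreted phospholipase encoded next to PLA2G2A, moved the other way and was dim. In control cultures of replicate 1 its signal went from 12.1 to 1.5, from 18 to 0.7 and from 18.5 to 3.2 in control 1, control 2 and control 3. In replicate 2 it went from 19.4 to 3.5, from 7.2 to 0.8 and from 18.2 to 7.1. No MDV3100 signal of a control culture reached the DMSO range of its own replicate number, and all lay below the filter signal of 12.1. The fall of -0.74 ± 0.10 (SE, n = 3 lines) had limma adjusted p = 0.000962 and was called whichever of the 3 control lines was left out. It was -0.83 (adjusted p = 0.00175) without the replicate 2 arrays labelled control 2 and clone 1, -0.85 (adjusted p = 0.0257) in replicate 1 alone and -0.63 (adjusted p = 0.0638) in replicate 2 alone. The replicate 1 call was lost without control 1 or control 2 (adjusted p = 0.147 and 0.167). The set 206178_at, tested without the filter, fell by 0.44 (adjusted p = 0.0273, with 3.07% of all probe sets called).

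In the clones PLA2G5 was lower under the drug in 13 of 14 cultures. In replicate 1 its DMSO signal lay between 5.9 and 22.7, median 13.1, and its MDV3100 signal between 1.7 and 11.6, median 3.3. In replicate 2 these ranges were 14.7 to 45.2, median 28.4, and 9.9 to 32.9, median 24.6. The clones' fall of -0.40 ± 0.07 (SE, n = 7 clones) was called (limma adjusted p = 0.0263), and it was -0.55 (adjusted p = 0.0692) in replicate 1 and -0.24 (adjusted p = 0.407) in replicate 2. It lost its call without clone 9, 10, 14 or 15 (adjusted p between 0.0619 and 0.0843) and without the replicate 2 arrays labelled control 2 and clone 1 (-0.38, adjusted p = 0.165). The gap between the responses, 0.34 ± 0.12, did not pass (adjusted p = 0.219).

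Under MDV3100 PLA2G5 was higher in clones than in control lines by 0.59 ± 0.11 (limma adjusted p = 0.013). In replicate 1 alone that difference was 0.21 (adjusted p = 0.397) and in replicate 2 alone 0.98 (adjusted p = 0.014), where all 7 clones lay above all 3 control cultures. The replicate 2 call was lost without control 2 or control 3 (adjusted p = 0.0616 and 0.0512), and the set passed the filter only through 6 of these clones. Without control 1 it was 0.59 (adjusted p = 0.0791) and without control 2 it was 0.52 (adjusted p = 0.0507). It was 0.58 (adjusted p = 0.0234) without the replicate 2 arrays labelled control 2 and clone 1, and with the replicate block it had adjusted p = 0.249. In DMSO the difference of 0.25 was not called (adjusted p = 0.329), and without clone 1 it was 0.34 (adjusted p = 0.0449).

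PTGS1, cyclooxygenase 1, makes the prostaglandin precursor from arachidonate and is the constitutive form of the enzyme. Its level separated clones from control lines in replicate 1 and not in replicate 2. In replicate 1 its DMSO signal was 17.5, 13.1 and 11 in control 1, control 2 and control 3, and it lay between 50.3 and 122.4, median 73.8, in the 7 clones. The groups did not overlap, and clones exceeded control lines by 1.64 ± 0.20 (limma adjusted p = 0.00146). Under MDV3100 the signals were 17.4, 4.5 and 29.9 in control lines and 60.6 to 203.9, median 89.8, in clones, a difference of 1.89 ± 0.32 (adjusted p = 0.00704), and 1.57 (adjusted p = 0.0654) without control 2.

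In replicate 2 the DMSO signal of PTGS1 was 23.8, 82.3 and 90.5 in control 1, control 2 and control 3. In the clones it lay between 20.2 and 55.3, median 23.3, and clone 1 was the highest. Control 2, control 3 and clone 1 of replicate 2, the cultures that matched replicate 1 clones best, had PTGS1 signals inside the range of the replicate 1 clones. Clones minus control lines in replicate 2 was -0.78 (limma adjusted p = 0.0929) in DMSO and -0.67 (adjusted p = 0.206) in MDV3100. With all arrays the differences were 0.43 (adjusted p = 0.156) and 0.61 (adjusted p = 0.14), and without the replicate 2 arrays labelled control 2 and clone 1 they were 0.74 (adjusted p = 0.115) and 0.97 (adjusted p = 0.0936).

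The change between replicate numbers was tested as replicate 2 minus replicate 1 of the same label in DMSO. PTGS1 was lower in replicate 2 in the clones by -1.09 ± 0.20 (limma adjusted p = 0.00103), a contrast in which 46.2% of all probe sets were called. In the control lines it was 1.33 ± 0.30 (adjusted p = 0.0602, with 0.724% called). The 2 changes differed by -2.42 ± 0.36 (adjusted p = 0.00648, with 14.8% called), and by -2.10 (adjusted p = 0.0527) without control 3. The drug response of PTGS1 was 0.16 ± 0.14 (adjusted p = 0.523) in control lines and 0.34 ± 0.09 (adjusted p = 0.118) in clones, with a higher signal under MDV3100 in 12 of 14 clone cultures. In replicate 1 and replicate 2 alone these responses were 0.09 and 0.24 in control lines and 0.33 and 0.35 in clones, with no call by limma (adjusted p between 0.287 and 0.836). The dimmer set 215813_s_at rose in the control lines by 0.40 (adjusted p = 0.0207), with 0.15 (adjusted p = 0.533) in replicate 1 alone and 0.65 (adjusted p = 0.105) in replicate 2 alone.

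PTGER4, the EP4 receptor that couples prostaglandin E2 to cyclic AMP, fell under MDV3100 in all 6 control cultures. In replicate 1 its signal went from 50.5 to 12.2 in control 1, from 97.8 to 27.1 in control 2 and from 55.3 to 16.9 in control 3. In replicate 2 it went from 57.8 to 12, from 152.3 to 105.5 and from 112.8 to 54.4. The fall was smallest in the replicate 2 culture labelled control 2, which also showed no fall of KLK2 (from 2359 to 2511). The control response was -1.08 ± 0.14 (SE, n = 3 lines; limma adjusted p = 0.00071) and was called whichever control line was left out. It was -1.24 (adjusted p = 0.000529) without the replicate 2 arrays labelled control 2 and clone 1, -1.25 (adjusted p = 0.00765) in replicate 1 alone and -0.91 (adjusted p = 0.0714) in replicate 2 alone. The replicate 1 call was lost without control 1 or control 2 (adjusted p = 0.0939 and 0.0741).

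The clones divided for PTGER4 in replicate 1. There its DMSO signal lay between 45.4 and 132.6, median 84.2, and its MDV3100 signal between 28.3 and 83.4, median 49.4. The responses of clones 9, 10, 14 and 15 were -0.78, -0.71, -1.14 and -0.84, whereas those of clones 1, 19 and 24 were -0.09, 0.09 and 0.34. PLA2G5 had -0.97, -1.12, -0.56 and -0.94 in the first 4 cultures and 0.03, -0.08 and -0.23 in the other 3. KLK2, the androgen-induced gene, had -2.60, -2.46, -2.20 and -0.29 in the first 4 and 0.25, 0.15 and -0.03 in the other 3. Clone 15 thus had values near those of clones 9, 10 and 14 for PTGER4 and for the brightest PLA2G5 set. By the dim PLA2G5 set 206178_at clone 15 had -0.119, against -0.742, -0.452 and -0.467 in those clones. Clones 1, 19 and 24 had -0.196, 0.145 and -0.26 by that set. The place of clone 15 for PLA2G5 therefore depended on the probe set. The KLK2 value of clone 15 was below those of clones 1, 19 and 24 but much nearer to theirs. In replicate 2 PTGER4 lay between 56.1 and 273.3, median 155.1, in DMSO and between 40.1 and 186.0, median 141.3, in MDV3100, and no clone moved by more than 0.52.

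The mean PTGER4 response of the clones was -0.35 ± 0.09 (limma adjusted p = 0.114). It exceeded that of the control lines by 0.73 ± 0.17 (adjusted p = 0.0796), and this difference was called without the replicate 2 arrays labelled control 2 and clone 1 (0.90, adjusted p = 0.0389). That control 2 culture had the smallest PTGER4 fall of the control cultures. Leaving it out widens the gap, so this call is no support for a difference. The difference was 0.80 in replicate 1, with an adjusted p of 0.238, and 0.65 in replicate 2, with an adjusted p of 0.261. In DMSO the clones exceeded the control lines by 0.39 (adjusted p = 0.313), by 0.27 in replicate 1 and 0.51 in replicate 2 (limma adjusted p = 0.55 and 0.36). Under MDV3100 they exceeded them by 1.12 ± 0.24 (adjusted p = 0.0199), by 1.07 in replicate 1 alone, with an adjusted p of 0.0242, and by 1.17 in replicate 2 alone, with an adjusted p of 0.0827. In replicate 1 the lowest clone, at 28.3, lay above the highest control line, at 27.1. Without control 1 the MDV3100 difference was 0.76 (adjusted p = 0.106), without control 3 it was 1.15 (adjusted p = 0.0583), and without the replicate 2 arrays labelled control 2 and clone 1 it was 1.43 (adjusted p = 0.0031). With the replicate block it had adjusted p = 0.208. The replicate 1 call was lost without control 1 or control 2 (adjusted p = 0.13 and 0.0738).

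**Figure D2:**
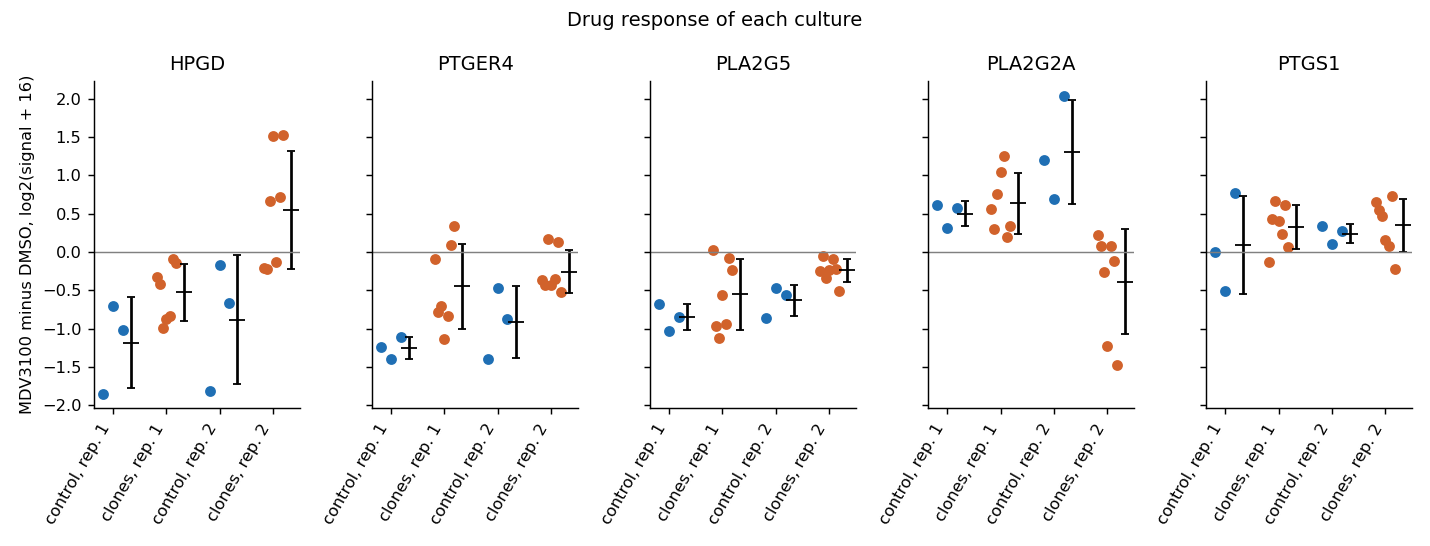
Drug response of each culture for the 5 genes, as MDV3100 minus DMSO on the log2(signal + 16) scale, for control lines (blue, n = 3) and clones (orange, n = 7) of each replicate number, with the mean and SD beside the points. PTGER4 and PLA2G5 lie below 0 in all 6 control cultures, PLA2G2A lies above 0 in all 6, and HPGD and PLA2G2A of the replicate 2 clones spread on both sides of 0.

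HPGD, the dehydrogenase that oxidises prostaglandin E2 to an inactive form, fell under the drug in all 6 control cultures. In replicate 1 its signal went from 71.9 to 8.4, from 32.0 to 13.5 and from 17.9 to 0.8 in control 1, control 2 and control 3. In replicate 2 it went from 69.3 to 8.3, from 15.7 to 12.1 and from 13.9 to 2.8. Control 1 had the highest DMSO signal of the control lines in both replicates. The response was -1.04 ± 0.23 (SE, n = 3 lines; limma adjusted p = 0.0149), with -1.19 (adjusted p = 0.00673) in replicate 1 alone, -0.88 (adjusted p = 0.36) in replicate 2 alone and -1.12 (adjusted p = 0.00901) without the replicate 2 arrays labelled control 2 and clone 1. Without control 1 it was -0.64 (adjusted p = 0.215), and in replicate 1 alone -0.86 (adjusted p = 0.12). The sets 211548_s_at and 203913_s_at were also called, at -1.26 (adjusted p = 0.00263) and -0.54 (adjusted p = 0.0484), and 211549_s_at was not (-0.34, adjusted p = 0.244).

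HPGD of the clones overlapped the control lines in replicate 1 and lay far above them in 6 of 7 clones in replicate 2. In replicate 1 the DMSO signal lay between 3.1 and 34.8, median 13.9, and the MDV3100 signal between 0.8 and 20.6, median 4.0. It was lower under the drug in 7 of 7 clones, and the mean of -0.53 was not called (limma adjusted p = 0.0927). In replicate 2 clone 1 had 4.1 in DMSO and 1.3 in MDV3100. The other 6 clones had 141.7 to 415.8 in DMSO and 234.3 to 794.2 in MDV3100, above every control culture. Clones 14 and 24 went from 260.6 to 775.3 and from 266.1 to 794.2, clones 10 and 19 from 141.7 to 234.3 and from 254.2 to 428.9, and clones 9 and 15 from 282.0 to 239.2 and from 415.8 to 377.9. Over the kept probe sets clones 14 and 24 of replicate 2 were each other's best match (r = 0.95).

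Replicate 2 minus replicate 1 of the DMSO level of HPGD was 2.59 ± 0.49 in the clones (limma adjusted p = 0.00132) and -0.27 in the control lines (adjusted p = 0.884). The 2 changes differed by 2.87 ± 0.89 (adjusted p = 0.0491), and this call was kept only without clone 1 among the 10 fits that left out a line, with adjusted p up to 0.155 without control 3. PTGER4, PLA2G5 and PLA2G2A changed in the clones by 0.77 (adjusted p = 0.022), 0.60 (adjusted p = 0.00215) and 0.81 (adjusted p = 0.183). The PTGER4 call was lost without clone 14, 19 or 24, with adjusted p between 0.0628 and 0.0708. With PTGS1, 9 of the 10 member probe sets were called in this contrast, 6 higher and 3 lower, where 46.2% of all probe sets were called. HPGD 203913_s_at and 211549_s_at and the PLA2G5 set passed the filter only through the bright replicate 2 clones. PTGS1 205128_x_at and 215813_s_at did so only through the replicate 1 clones. These are the groups contrasted here, so the count and the PLA2G5 call are no support for a change. The drug response of HPGD in clones changed by 1.08 ± 0.22 between replicate numbers (adjusted p = 0.103), and by 1.24 (adjusted p = 0.0338) without clone 1.

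**Figure D3:**
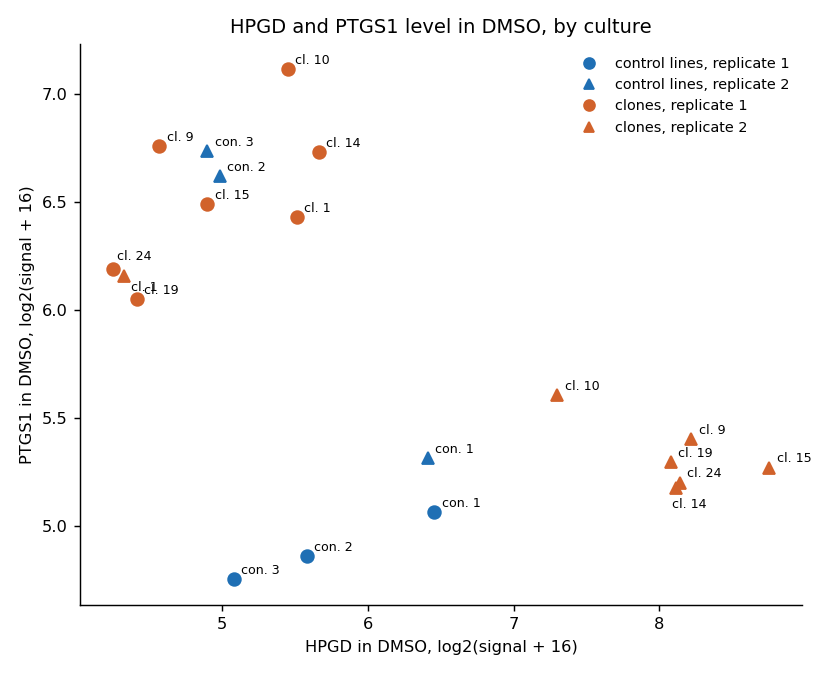
DMSO level of HPGD (horizontal) against PTGS1 (vertical) in the 20 cultures, both as log2(signal + 16), with circles for replicate 1, triangles for replicate 2, blue for control lines (con.) and orange for clones (cl.). The 6 replicate 2 clones with high HPGD lie at the lower right, and the replicate 2 cultures labelled control 2, control 3 and clone 1 lie among the replicate 1 clones.

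With all arrays the HPGD response of the clones was 0.01 ± 0.15 (limma adjusted p = 0.983), the mean of values with opposite signs in the 2 replicate numbers. The difference of the responses was 1.05 ± 0.28 (adjusted p = 0.111), and 1.13 (adjusted p = 0.0704) without the replicate 2 arrays labelled control 2 and clone 1. The set 211548_s_at gave 1.25 ± 0.25 (adjusted p = 0.0452), with 0.84 (adjusted p = 0.188) and 1.66 (adjusted p = 0.187) in replicate 1 and replicate 2 alone. Under MDV3100 the brightest HPGD set was higher in clones by 1.74 ± 0.40 (adjusted p = 0.0252), with adjusted p = 0.36 with the replicate block and 0.0609 without the filter. That set gave -0.08 (adjusted p = 0.857) in replicate 1 and 3.56 (adjusted p = 0.0292) in replicate 2. Without the 6 bright replicate 2 clones its mean was 4.82, just inside the filter of 4.815, and 211548_s_at was brighter, at 4.881. The choice of 203914_x_at to stand for HPGD thus rests on the clones in which it is high. The replicate 2 call held in 3 of the 10 fits that left out a line and was lost without any control line or clone 14, 15, 19 or 24 (adjusted p between 0.0519 and 0.0896). The call with all arrays was lost without control 1, control 2 or control 3 (adjusted p = 0.106, 0.0538 and 0.0924), and it was 1.81 (adjusted p = 0.0118) without the replicate 2 arrays labelled control 2 and clone 1. In DMSO the clones differed from the control lines by 0.69 (adjusted p = 0.289), with -0.74 and 2.13 in the 2 replicate numbers, and by 0.92 (adjusted p = 0.0352) without clone 1.

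**Figure D4:**
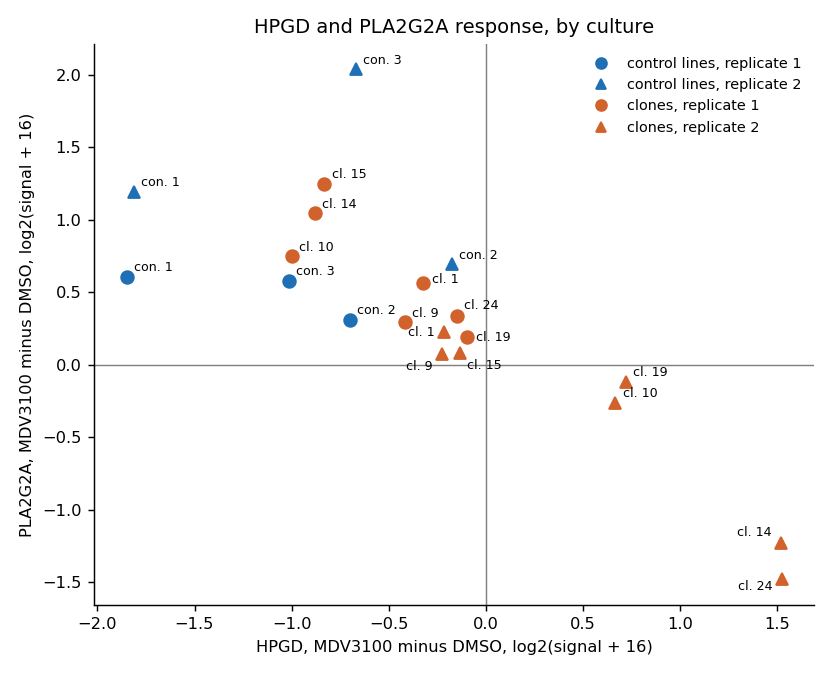
Drug response of the brightest HPGD set (horizontal) against that of PLA2G2A (vertical) in the 20 cultures, as MDV3100 minus DMSO on the log2(signal + 16) scale, with circles for replicate 1, triangles for replicate 2, blue for control lines (con.) and orange for clones (cl.). HPGD was lower and PLA2G2A higher in all 6 control cultures and all 7 replicate 1 clones, and 4 replicate 2 clones (10, 14, 19 and 24) have both signs turned.

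The responses of PLA2G2A and of the brightest HPGD set had opposite signs in all 20 cultures, as they did for HPGD 211548_s_at and 203913_s_at. For the set 211549_s_at, which was also kept, the signs were opposite in 13 cultures and the same in 7. By the brightest set HPGD was lower and PLA2G2A higher under MDV3100 in 16 cultures, which were the 6 control cultures, the 7 replicate 1 clones and clones 1, 9 and 15 of replicate 2. In the other 4, clones 10, 14, 19 and 24 of replicate 2, HPGD was higher and PLA2G2A lower. Some of these signs rest on small moves or on signals below the filter signal of 12.1. HPGD went from 5.4 to 4.0 and from 3.1 to 1.2 in clones 19 and 24 of replicate 1, and from 4.1 to 1.3 in clone 1 of replicate 2. PLA2G2A moved by 0.074 and 0.081 in clones 9 and 15 of replicate 2. HPGD 211548_s_at and 203913_s_at followed the brightest set with r = 0.99 and 0.97, so they are not separate evidence. This pattern of signs was chosen after its values were seen and has no test. Across the 40 arrays the levels of the 2 genes had r = 0.07, as a description of cultures that share lines and treatments. HPGD, PTGER4 and PLA2G5 went together more closely, with r between 0.72 and 0.76 for the 3 pairs, and HPGD and PTGS1 had r = -0.51. In replicate 1 arrays alone HPGD had r = 0.28 with PTGER4, 0.41 with PLA2G5 and -0.29 with PTGS1, and in replicate 2 arrays alone 0.73, 0.77 and -0.79. PTGER4 and PLA2G5 had 0.65 and 0.63.

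The other genes of the pathway were taken from 7 lists with 84 members, of which 76 had a named probe set and 46 passed the filter. In the control lines 5 of the 46 rose under MDV3100 and 1 fell, and the median difference was 0.04, where 8.32% of all probe sets were called. In the fit with 1 probe set per gene 10.1% of 11853 genes were called. ACSL4, which activates arachidonate for storage in lipids, rose by 0.58 (limma adjusted p = 0.00747), and ADCY7, an adenylyl cyclase that makes cyclic AMP, by 0.54 (adjusted p = 0.00809). PTGR2, a reductase of prostaglandin breakdown products, and ALOX15, a lipoxygenase, each rose by 0.48 (adjusted p = 0.0394 and 0.0145). LPCAT3, an enzyme that puts fatty acids back into phospholipids, rose by 0.26 (adjusted p = 0.0495), and ABCC4, a pump that exports prostaglandins, fell by 0.36 (adjusted p = 0.0292). In replicate 2 alone 0 of the 46 were called by limma in this comparison (0.0732% of all probe sets), with 6 at an unadjusted p under 0.05. ACSL4 had 0.14 there against 1.01 in replicate 1. ADCY7, PTGR2 and ALOX15 had 0.30, 0.08 and 0.06 in replicate 2 against 0.78, 0.88 and 0.90 in replicate 1. LPCAT3 had 0.23 and 0.29, and ABCC4 -0.32 and -0.40, in the same order. With the replicate block LPCAT3 and PTGR2 lost their calls and 3 rose and 1 fell, where 1853 of the 27338 probe sets were called. Without control 1 the response of ACSL4 was 0.54 (adjusted p = 0.0967), of ADCY7 0.46 (adjusted p = 0.12), of PTGR2 0.32 (adjusted p = 0.36) and of ALOX15 0.39 (adjusted p = 0.177), and each of these 4 calls was also lost without control 2.

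Besides the members 4 phospholipase, 7 synthase and 4 prostanoid receptor genes were kept. With all arrays 0 of them were called by limma in the control response or in the level under MDV3100. At an unadjusted p under 0.05 by limma there were 1 and 4, against 24.3% and 26.2% of all probe sets. In replicate 1 alone 1 synthase gene was called in the control response (6.39%) and 1 in the MDV3100 level (7.18%), both higher. For the MDV3100 level in replicate 2 alone (16.6%) 1 synthase gene was higher, and 1 synthase, 1 phospholipase and 1 receptor gene were lower. PTGS2, the inducible cyclooxygenase, was below the filter and never exceeded a signal of 7.7, and the EP receptors PTGER2 and PTGER3 reached at most 8.4 and 11.2. SLCO2A1, a transporter that takes prostaglandins up, reached 15.0 at most. These 4 genes and the 2 after them were named after their values were seen. Among bright members of the lists were PTGES3, a cytosolic prostaglandin E synthase, with a median signal of 2911, and PTGR1, a reductase of prostaglandin metabolites, with 1879.

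Under MDV3100 5 of the 46 pathway genes were lower in clones than in control lines and 0 higher, with a median difference of -0.12. Of all probe sets 7.84% were called, and of 11853 genes 8.96% in the fit with 1 probe set per gene. With the replicate block 0 of the 46 were called by limma (8 at an unadjusted p under 0.05), so all 5 calls were lost. In replicate 1 alone 2 were higher and 1 lower, with a median of 0.05, where 7.18% of all probe sets were called. In replicate 2 alone 2 were higher and 10 lower, with a median of -0.17, where 16.6% were called. With all arrays the 5 were the adenylyl cyclases ADCY1 (-0.82, limma adjusted p = 0.0331) and ADCY9 (-0.58, adjusted p = 0.0322), ACSL4 (-0.74, adjusted p = 0.0183), LPCAT3 (-0.42, adjusted p = 0.0445) and PRKACA (-0.40, adjusted p = 0.0295), a catalytic subunit of the kinase that cyclic AMP activates. In replicate 1 alone ADCY1, ADCY9 and LPCAT3 had the opposite sign (0.16, 0.13 and 0.05), and in replicate 2 alone they had -1.80, -1.28 and -0.88. PRKACA had -0.11 and -0.69. ACSL4 was lower in both, at -0.98 (adjusted p = 0.0524) in replicate 1 and -0.50 (adjusted p = 0.0321) in replicate 2. The calls of ADCY1, ADCY9 and LPCAT3 were lost without control 1, control 2 or control 3 and without several clones, and that of ACSL4 without control 1 or control 2. With all arrays 0 of the 46 were called by limma in the clones' response, in the difference of responses and in the DMSO level. At an unadjusted p under 0.05 by limma there were 8, 5 and 14, against 14.1%, 14.1% and 23% of all probe sets. In the DMSO level 2 were higher and 1 lower in replicate 1 alone, where 4.15% of all probe sets were called. In replicate 2 alone 1 was higher and 7 lower, where 9.24% were called.

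For each member the 3 genes whose level was most like it over the 40 arrays were found among the 11853 genes. HPGD was most like TGFB2 (r = 0.95), DDX20 and ITPRIPL2 (both 0.94), and in replicate 1 arrays alone these r were 0.53, 0.47 and 0.35. PTGER4 was most like the replication genes ORC5, DTL and RFC4, each with r = 0.88, and with 0.82 to 0.84 in replicate 1 alone. PLA2G5 was most like ST6GALNAC1 (0.88), TMEM79 (0.87) and DNAJC9 (0.86), with 0.76, 0.67 and 0.73 in replicate 1 alone. PLA2G2A was most like CAMK2N1 (0.77), RANGRF (0.74) and FAM53B (0.73), with 0.76, 0.60 and 0.72 in replicate 1 alone. PTGS1 was most like FAM228B (0.89), CDIPTOSP (0.88) and DIAPH2 (0.87), with 0.91, 0.90 and 0.95 in replicate 1 alone. All these arrays share lines, treatments and replicate numbers, so the r are descriptions.

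The actin 3' to 5' ratio, a measure from 1 transcript, had a lower median in replicate 2 than in replicate 1 in every group. The ranges of the replicate numbers overlapped except in control MDV3100 arrays. Beside the control arrays given above, the actin 3' to 5' ratio of clone arrays lay between 3.39 and 4.78 in DMSO and 3.68 and 5.34 in MDV3100 in replicate 1. In replicate 2 it lay between 2.69 and 3.48 in DMSO and 2.59 and 3.71 in MDV3100. Its part in the differences between replicate numbers was not tested.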

How the data were processed

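Per the labels' protocols, amplified, biotin-labelled RNA of 40 LNCaP samples was hybridised to arrays. The authors deposited 1 signal intensity per probe set, on a linear scale, which the submitters' processing notes credit to MAS5 without a version. After trimming 2% at each end, the mean of each array was 150.0 after rounding to a whole number, so no further scaling was applied. Array medians were 10.7 to 18.4. Precision is limited by how many arrays there were. Columns were matched to samples by identifier, with 0 left over, and groups came from the titles.

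Values were converted to log2(signal + 16) and probe sets with a mean of at least 4.815 were kept, which left 27338 of 54675. Names came from the platform annotation, in which 41097 probe sets had 1 gene. Limma 3.58.1 in R 4.3.3 was run on 10 lines, with the 2 arrays of a line and treatment averaged, responses paired within the line and Benjamini-Hochberg adjustment over all kept probe sets. The code was tested on simulated data. The replicate number pairs a line's DMSO array with its MDV3100 array: departures from group means had r = 0.435 to 0.852 in the 20 pairs. An alternative fit, the replicate block, took each pair as a unit, with no term for the line. Other alternatives were pseudocounts of 4 and 64, no filter, quantile normalization, an intensity trend, 1 probe set per gene, each replicate number alone, the 2 doubtful labels left out, and each line left out. Contrasts between replicate numbers were added after the data were seen. The members, the gene lists and the rule for named genes were chosen with earlier results of these data known. The rule names all member probe sets, up to 4 called pathway genes with the largest difference per comparison, 3 genes most like each member and KLK2, TMPRSS2 and FKBP5; LPCAT3 in the control response, ABCC4 and PRKACA complete counts of called genes and were named after their values were seen.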

Additional observations from a re-analysis of the deposited data

Results flagged for a closer look

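Of 30 groups of 4 to 10 arrays examined for a sample far from the others with Dixon's 95% critical value, 4 held one, and chance gives about 5% of groups. The replicate 2 culture labelled clone 1 was the lowest of 7 clones for HPGD in DMSO, at 4.1 against 141.7 to 415.8, with a gap of 0.672 of the range on the log2 scale. It was also the lowest for HPGD in MDV3100, at 1.3 against 234.3 to 794.2, with a gap of 0.695 of the range. For PTGER4 in MDV3100 it was the lowest at 40.1 against 101.9 to 186.0, with a gap of 0.580. Among the 6 control arrays in MDV3100 the replicate 2 culture labelled control 2 was the lowest for PLA2G2A, at 23.0 against 223.0 to 352.9, with a gap of 0.807. Each of these 2 cultures matched a replicate 1 clone with another label best over the kept probe sets, as the replicate 2 culture labelled control 3 and several replicate 1 clones also did.

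The response of HPGD 211548_s_at differed between clones and control lines by 1.25 (limma adjusted p = 0.0452), a test of the difference itself.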

How the results depend on the processing

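The call counts for the 10 member probe sets are those most changed by the processing. In the control response, 7 were called, 4 with a pseudocount of 64 and 4 with 1 probe set per gene. In the response of clones, 1 was called, and 0 with a pseudocount of 64, without the filter, with the intensity trend, and without the replicate 2 arrays labelled control 2 and clone 1. In the difference of responses, 1 was called, 0 with a pseudocount of 4 or 64, without the filter, with quantile normalization, with the trend and with 1 probe set per gene, and 2 without those arrays. In the MDV3100 level, 6 were called, and 3 with 1 probe set per gene, where fewer probe sets were tested. Other causes were not tested.

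With the replicate block, each pair of a line and replicate number counted as a unit, 6 were called in the control response, 1 in the clones, 0 in the difference of responses and 0 in the MDV3100 level. There HPGD, PTGER4 and PLA2G5 had limma adjusted p = 0.36, 0.208 and 0.249 for the MDV3100 level, and 0.0238, 0.000406 and 0.00149 for the control response. These p-values count the 2 cultures of a line as separate replicates, although they share a line.

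Leaving out a replicate number or a line gave 0 to 7 calls in the control response, 0 to 1 in the clones, 0 to 1 in the difference, 0 to 3 in the DMSO level and 0 to 6 in the MDV3100 level.

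Signs turned for differences near 0 or opposed between replicate numbers. The HPGD response of clones was -0.25 with a pseudocount of 4 and -0.01 after quantile normalization, and -0.53 to 0.55 with a replicate number or line left out. The PLA2G2A MDV3100 level was -0.44 without the replicate 2 arrays labelled control 2 and clone 1. The change of the PTGS1 response of clones between replicate numbers was -0.04 with a pseudocount of 64. With a replicate number or line left out, HPGD lay between -0.74 and 2.13 for the DMSO level and -0.08 and 3.56 for the MDV3100 level, and PLA2G5 between -0.09 and 0.59 for the DMSO level. PLA2G2A lay between -0.39 and 0.63 for the clones' response, -1.70 and 0.13 for the difference of responses, -0.25 and 2.31 for the DMSO level and -0.13 and 0.61 for the MDV3100 level. PTGS1 lay between -0.02 and 0.34 for the control response, -0.01 and 0.36 for the difference, -0.78 and 1.64 for the DMSO level and -0.67 and 1.89 for the MDV3100 level. For the MDV3100 level ADCY1, ADCY9 and LPCAT3 lay between -1.80 and 0.16, -1.28 and 0.13, and -0.88 and 0.05. Between replicate numbers, the DMSO level of PLA2G5 in control lines changed by -0.28 to 0.16, and the PTGS1 response by -0.11 to 0.07 in clones and -0.08 to 0.47 in control lines.
Dim signals limit PLA2G5 and HPGD most, since their MDV3100 signals in control lines lay mostly below the filter signal of 12.1, where the pseudocount sets the size of a fall.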
